A study of Mus musculus with 18 samples.

Results

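Immune cells of atherosclerotic arteries that carried only the Cd11c reporter (YFP) were compared with cells that carried only the Cx3cr1 reporter (GFP). The comparison rests on 11 of the 18 RNA sequencing libraries of the study, 5 of YFP cells (replicates 1, 3, 4, 5 and 6) and 6 of GFP cells (replicates 1 to 6), chosen by the sorted subset that the labels name. Both groups came from male and female Apoe-/- Cx3cr1GFP Cd11cYFP mice on the C57BL/6 background, 7 months old and fed Western Diet for 5 months, so every library shares the loss of Apoe, both reporter alleles and the diet. Live CD45+ cells had been sorted from digested aortas and carotid arteries. The study also sorted cells with both reporters and with neither, which are not described here. Nothing in the labels tells whether the replicates are separate mice or pools of mice, and the p-values therefore cover the variation among these libraries alone, part of which may be technical.

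Cx3cr1 encodes the receptor of fractalkine, which monocytes use to patrol and survive along vessel walls and which many tissue macrophages keep. Itgax encodes the integrin subunit Cd11c, carried by dendritic cells and also by macrophages that have taken up lipid in the artery wall. In plaques, macrophages that load cholesterol become foam cells with large lysosomes, while dendritic cells present antigen and resident macrophages line the outer vessel layer.

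The promoters that stand behind both sort gates are shown first, as RefSeq gives them for the GRCm38.p6 assembly, with 250 bases before and 50 bases after the gene start. Capitals mark the bases after the start. Starts are those of RefSeq. That of Cx3cr1 lies inside the gene as GENCODE bounds it, downstream of the outermost start there. The Cx3cr1 window is chr9:120068247-120068546 on the minus strand and the Itgax window chr7:128129300-128129599 on the plus strand.
Cx3cr1: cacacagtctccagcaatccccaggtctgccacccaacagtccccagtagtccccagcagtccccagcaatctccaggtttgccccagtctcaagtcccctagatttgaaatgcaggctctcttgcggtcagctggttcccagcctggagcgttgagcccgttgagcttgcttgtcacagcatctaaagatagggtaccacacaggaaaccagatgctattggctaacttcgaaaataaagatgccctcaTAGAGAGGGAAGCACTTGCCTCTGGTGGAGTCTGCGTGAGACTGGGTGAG
Itgax: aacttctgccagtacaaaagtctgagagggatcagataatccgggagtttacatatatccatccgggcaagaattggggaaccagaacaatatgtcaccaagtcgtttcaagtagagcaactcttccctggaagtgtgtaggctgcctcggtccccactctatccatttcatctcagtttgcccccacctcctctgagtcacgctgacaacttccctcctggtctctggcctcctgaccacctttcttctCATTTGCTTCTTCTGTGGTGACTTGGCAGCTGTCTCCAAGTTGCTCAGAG

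Gene counts per library summed to between 17776952 and 27742113 in YFP replicates 1, 3, 4 and 5, and to between 11066213 and 21674877 in the GFP libraries. YFP replicate 6 was much shallower, with 289166 counts. There, 1 read is worth 2.95 CPM (reads scaled to a common library size), a gene with no read could still stand at up to 8.85 CPM (3 reads, counting error only), and 1720 of the 13226 genes tested had no read. YFP replicate 5 stood apart from all others. Its Spearman correlation with the other 10 libraries, across genes, lay between 0.641 and 0.776, while GFP libraries correlated with each other at 0.879 to 0.984. The scaling factor (TMM) of YFP replicate 5 was 0.447, against 0.907 to 1.43 in the other libraries. A low factor raises every CPM of a library. Despite 22549117 counts, 1117 tested genes had no read there, against 1 to 492 in the other libraries apart from YFP replicate 6. How far this shaped its extreme values was not tested. Replicates 1 and 2 held more detected genes than the rest of their groups (21823 in YFP replicate 1, and 20677 and 21448 in GFP replicates 1 and 2, against 14731 to 15730 in the other GFP libraries).

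Itgax (GRCm38 chromosome 7, 128129547 to 128150657, plus strand) stood at 181, 360.0, 473, 1116 and 88.5 CPM in YFP replicates 1, 3, 4, 5 and 6, the order that all YFP values keep. It stood at 101 to 189.9 CPM in the GFP libraries (median 159). YFP replicates 3, 4 and 5 lay above every GFP library, YFP replicate 1 lay within their range, and YFP replicate 6 lay below all of them on 30 reads. The log2 fold change, YFP over GFP, was 1.58 ± 0.50 (SE; edgeR adjusted p = 0.371), and 0.91 without YFP replicate 5. Cx3cr1 (chromosome 9, 119901616 to 120069879, minus strand) stood at 0.963, 57.6, 56.9, 26.2 and 103 CPM in the YFP libraries, against 80.3 to 156 CPM in the GFP libraries (median 134). YFP replicates 1, 3, 4 and 5 lay below every GFP library, and the library labelled YFP replicate 6 lay inside the GFP range on 35 reads. The log2 fold change of Cx3cr1 was -1.41 ± 0.69 (edgeR adjusted p = 0.499). The library labelled YFP replicate 6 thus went against its label for both genes. The counts of genes called and of genes without overlap, over all genes, are also given below without it. List counts below include it. Ptprc, which encodes CD45, was present throughout, at 454, 849, 662, 640.1 and 496 CPM in the YFP libraries and at 438 to 958 CPM in the GFP libraries (median 708). Reads were assigned to Apoe in every library, 20.7, 16.4, 22.6, 208 and 26.5 CPM in the YFP libraries against 21.9 to 54.2 CPM in the GFP libraries (median 33.5), and a count over the whole gene does not show whether the disrupted part was read. The Apoe log2 fold change of 0.69 rested on YFP replicate 5 and was -0.84 without it.

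**Figure D1:**
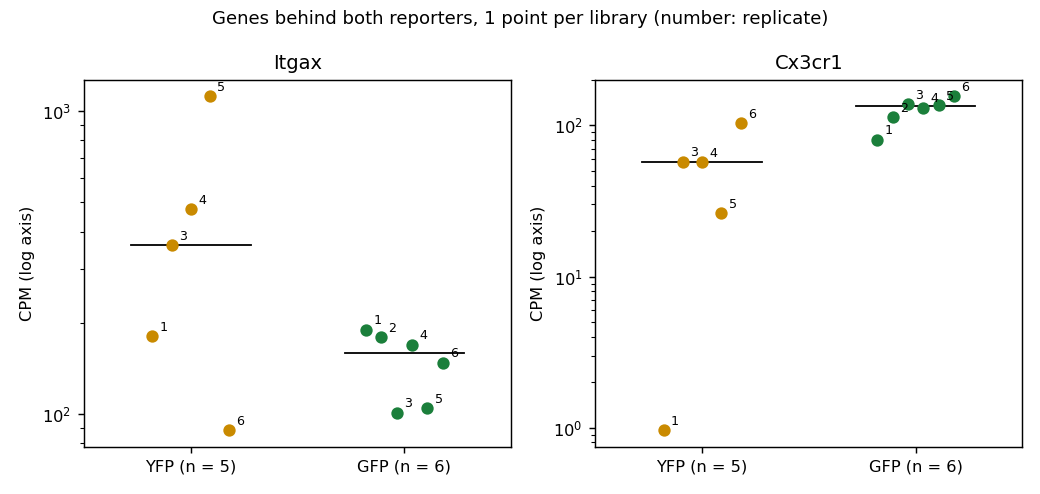
Level of Itgax and Cx3cr1 in CPM on a log axis, 1 point per library with its replicate number, YFP left and GFP right; lines mark medians. For Itgax, 3 of the 5 YFP points lie above all GFP points, and for Cx3cr1 4 of the 5 lie below all of them.

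Across 13226 tested genes, edgeR's quasi-likelihood test called none at a Benjamini-Hochberg adjusted p below 0.05, in either direction (0% of genes). At an unadjusted p below 0.05, 1206 genes were higher in YFP (9.12%) and 141 lower (1.07%). This fit did not pair libraries by replicate number, which the labels do not tie. With the number as a block these counts were 491 and 294, so they depend on that choice. The direction of all genes was close to even, with 53.0% above 0 and a median log2 fold change of 0.07. Levels that did not overlap between the groups were rarer. In 43 genes every YFP library lay above every GFP library (0.325%), and in 100 genes every YFP library lay below (0.756%). Without YFP replicate 6 these were 130 genes (0.983%) and 175 genes (1.32%). Which library carried the difference was uneven. Of the 1206 genes higher at an unadjusted p below 0.05, the highest value was in YFP replicate 5 for 867 (71.9%) and in YFP replicate 1 for 270 (22.4%). Of the 141 lower genes, the lowest value was in YFP replicate 5 for 80 (56.7%). Without YFP replicate 5, edgeR called 17 genes higher and 1 lower, and without YFP replicate 6 it called 12 higher and 1 lower. Ppap2b, Htra1, Ppic and Fam198b were called in both. DESeq2 called 225 higher and 20 lower, and limma voom with a weight per library called 221 higher and 64 lower, on all 11 libraries. The lowest adjusted p of the edgeR test was 0.0973, for Ppap2b.

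The 15 genes with the smallest p among those higher in YFP held enzymes of matrix and lipid turnover beside genes that are textbook markers of endothelium, fibroblasts and platelets. They were chosen from these same values, so the counts given for these 15 here and in the next paragraph describe them and test nothing. Ppap2b encodes a phosphatase of the cell surface that breaks down lysophosphatidic acid. It stood at 158, 70.3, 94.1, 136 and 38.3 CPM in YFP replicates 1, 3, 4, 5 and 6, against 8.59 to 18.1 CPM in the GFP libraries (median 14.01). Every YFP library lay above every GFP library, the shallow one included, and the log2 fold change was 2.84 ± 0.43. Htra1 encodes a secreted serine protease that cuts matrix proteins. Its level was 119.6, 68.4, 111, 285 and 26.5 CPM in the YFP libraries, against 9.76 to 20.7 CPM in the GFP libraries (median 13.8), a log2 fold change of 3.07 ± 0.51 (edgeR adjusted p = 0.121). The groups did not overlap, and YFP replicate 5 was highest and YFP replicate 6 lowest of the YFP libraries. Mfge8 encodes the bridging protein by which phagocytes bind dying cells. It was read at 423, 387, 1157, 2268 and 136 CPM in the YFP libraries, and at 64.1 to 118 CPM in the GFP libraries (median 96.5), a log2 fold change of 3.25 ± 0.57 (2.52 without YFP replicate 5). Again no YFP library fell within the GFP range, with YFP replicates 4 and 5 far above the other 3. Ctsk, the lysosomal collagenase cathepsin K, stood at 464, 415, 1313, 1775 and 150.4 CPM in the YFP libraries against 22.8 to 142 CPM in the GFP libraries (median 60.5). YFP replicate 6 came close to the highest GFP library and the other 4 lay well above it, and the log2 fold change was 3.55 ± 0.67. Cd24a, a lipid-anchored surface glycoprotein of dendritic cells and young lymphocytes, stood at 76.9, 62.2, 49.5, 219 and 50.1 CPM in the YFP libraries against 11.4 to 20.9 CPM in the GFP libraries (median 16.3). YFP replicates 1, 3, 4 and 6 lay near each other here, YFP replicate 5 was the highest, and the groups did not overlap.

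Plvap, which forms the diaphragms of endothelial pores, was read at 73.1, 17.9, 19.2, 172 and 0 CPM in YFP replicates 1, 3, 4, 5 and 6, against 0.569 to 3.88 CPM in the GFP libraries (median 1.54). Replicate 6 had no read, and the other 4 YFP libraries lay above every GFP library. Nos3, the endothelial nitric oxide synthase, was uneven in the YFP libraries, with 34.2, 2.39, 2.57, 206 and 20.6 CPM against 0.364 to 2.75 CPM in the GFP libraries (median 1.21). YFP replicates 3 and 4 fell inside the GFP range, and the log2 fold change of 5.30 was 3.39 without YFP replicate 5. Itga2b, the platelet integrin subunit, stood at 5.81, 39.1, 22.7, 103 and 2.95 CPM in the YFP libraries against 0.155 to 3.10 CPM in the GFP libraries (median 0.937), with only YFP replicate 6 inside the GFP range. The other 7 were Ppic (a cyclophilin), Fam198b (a Golgi protein), Fstl1 (a secreted glycoprotein of stromal cells), Entpd2 (an enzyme that splits extracellular ATP), the matrix proteins Mfap5 and Lum, and Cttn (cortactin, which binds branched actin). Their log2 fold changes lay between 2.77 for Lum and 4.03 for Ppic, and each had an edgeR adjusted p of 0.121. In 9 of the 15 the groups did not overlap, against 0.325% of all tested genes in this direction. For Ppic that separation rests on a single read in YFP replicate 6, worth 2.95 CPM, beside a highest GFP value of 2.91 CPM. All 15 passed DESeq2 and 12 passed limma voom. Of all 13226 tested genes, 225 and 221 were called higher by these tools.

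**Figure D2:**
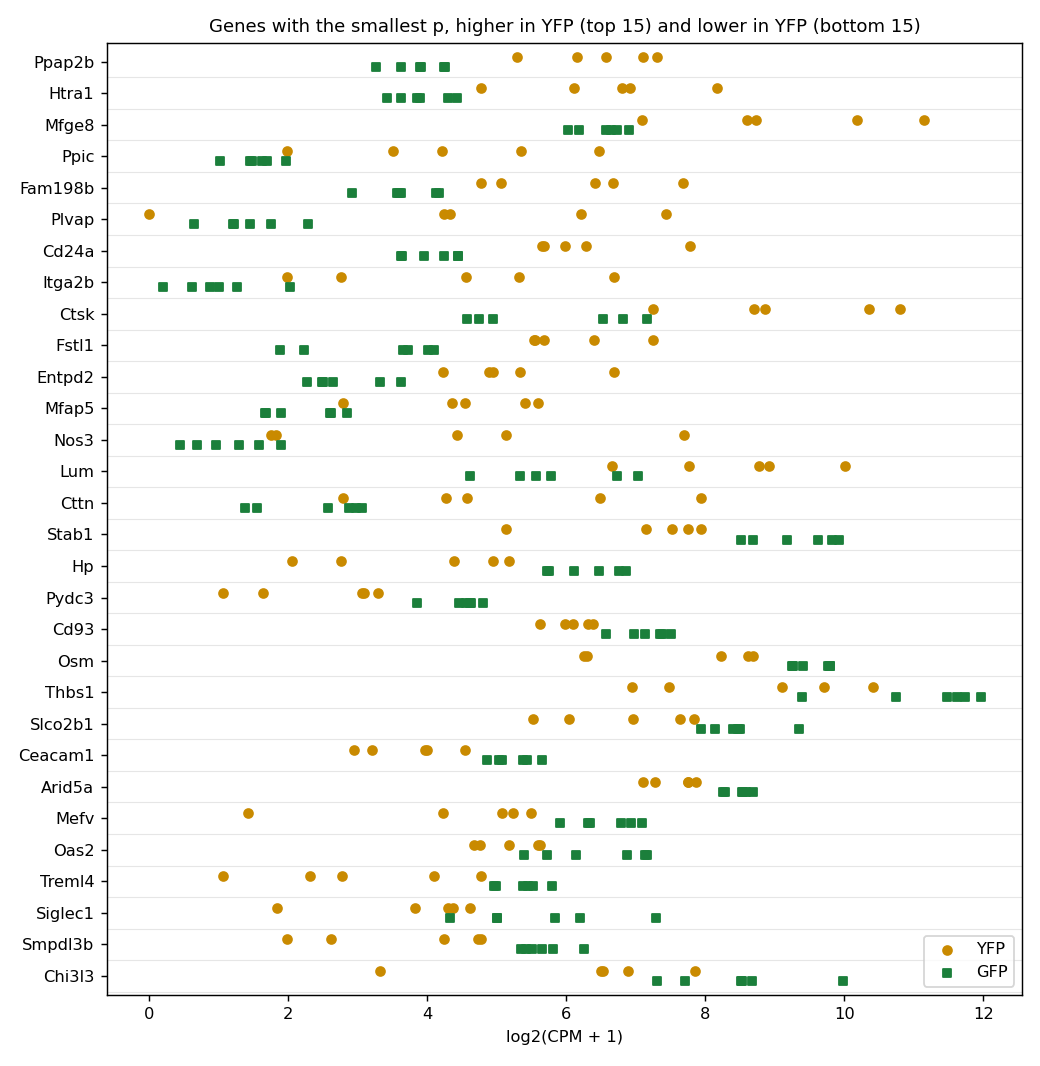
Level of the 15 leading genes in each direction, as log2(CPM + 1), 1 point per library, YFP above GFP in each row. YFP points spread over several log2 units in most rows, and 9 of the 15 upper rows and 11 of the 15 lower rows show no overlap between the groups. Rows were chosen by the smallest p in these same libraries, and 0.325% and 0.756% of all tested genes show no overlap in these directions.

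Among the 15 leading genes lower in YFP were macrophage surface receptors, monocyte products and interferon-induced genes. Stab1 encodes stabilin-1, a scavenger receptor of resident and alternatively activated macrophages. It stood at 141, 244, 183, 34.2 and 215 CPM in YFP replicates 1, 3, 4, 5 and 6, against 365 to 971 CPM in the GFP libraries (median 683). All YFP libraries lay below all GFP libraries, YFP replicate 5 by the widest margin, and the log2 fold change was -2.04 ± 0.46 (edgeR adjusted p = 0.145, and -1.79 on the log2 scale without YFP replicate 5). Osm encodes oncostatin M, a cytokine of activated myeloid cells. Its values were 75.8, 298, 412, 78.2 and 392 CPM in the YFP libraries and 608 to 887 CPM in the GFP libraries (median 773). YFP replicates 1 and 5 were lowest and the other 3 lay nearer to the GFP libraries, with no overlap. Cd93, a receptor of monocytes and endothelium, stood at 48.6, 62.5, 67.5, 78.8 and 82.6 CPM in the YFP libraries against 94.6 to 182 CPM in the GFP libraries (median 151). This was the most even of these genes among the YFP libraries, at a log2 fold change of -1.10 ± 0.31. Hp, haptoglobin, which monocytes store and release, was read at 5.81, 20.1, 30.0, 3.18 and 35.4 CPM in the YFP libraries, against 52.2 to 116 CPM in the GFP libraries (median 77.9). The groups were apart, lowest in YFP replicates 1 and 5 (log2 fold change -2.17 ± 0.59). The 15 also held Thbs1 (thrombospondin-1), Slco2b1 (an organic anion carrier), the adhesion molecule Ceacam1, the receptor Siglec1 of perivascular and marginal macrophages, Treml4 (a receptor of nonclassical monocytes), and Chi3l3 (the chitinase-like protein Ym1). Mefv (pyrin, an inflammasome protein), Pydc3, Oas2, Smpdl3b and Arid5a, which binds and stabilises the Il6 message, completed the set. Log2 fold changes ran from -2.17 for Hp to -0.91 for Arid5a, with edgeR adjusted p from 0.145 to 0.375. Of the 15, 11 showed no overlap between groups (0.756% of all tested genes in this direction), 12 passed limma voom and 5 passed DESeq2. Of all 13226 tested genes, 64 and 20 were called lower by these tools. These 15 were also chosen from these same values, so their counts describe them and test nothing.

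Gene lists were read next, each by the number of members above and below 0 and its median, beside 53.0% above 0 and a median of 0.07 for all tested genes. No member of any list passed the edgeR threshold. In bulk libraries fewer cells of a type and less RNA per cell cannot be told apart.

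Foam cell genes stood higher in YFP. Of 18 foamy or TREM2-high macrophage genes, all tested, 17 were above 0 and 12 had an unadjusted p below 0.05 (9.12% of all genes were higher at that level), with a median log2 fold change of 1.50. The median was 0.59 without YFP replicate 5. The summed level of the list was 24509.5, 42839, 93191, 195295 and 44243 CPM in YFP replicates 1, 3, 4, 5 and 6, against 17529 to 61522 CPM (median 33182) in the GFP libraries. Only YFP replicates 4 and 5 lay above every GFP library in that sum. Several single genes overlapped less. Atp6v0d2, a subunit of the proton pump that acidifies lysosomes, stood at 230.3, 279, 689, 1305 and 109 CPM in the YFP libraries, against 33.3 to 123 CPM in the GFP libraries (median 58.9). YFP replicate 6 lay just inside the GFP range and the other 4 above it, with a log2 fold change of 2.88 ± 0.60 (edgeR adjusted p = 0.121). Mmp12, the macrophage elastase, was read at 1594, 2941, 5676, 8909 and 743 CPM in the YFP libraries, against 314 to 1233 CPM in the GFP libraries (median 590.4), with again only YFP replicate 6 inside the GFP range. Lpl, lipoprotein lipase, which frees fatty acids from lipoproteins, had 954, 1641, 2785, 6381 and 652 CPM in the YFP libraries and 325 to 980.4 CPM in the GFP libraries (median 427). YFP replicates 1 and 6 overlapped with the GFP libraries and the rest did not. Cd5l, a macrophage protein that limits fatty acid synthesis and is outside the naming rule, stood at 133, 62.9, 325, 291 and 56.0 CPM in the YFP libraries against 8.80 to 89.9 CPM in the GFP libraries (median 13.5). GFP replicate 6, the highest of its group, was the one GFP library to overlap. Spp1, osteopontin, a secreted matrix protein, had 5707, 8366, 25183, 49759 and 13246 CPM in the YFP libraries against 2705 to 18814 CPM in the GFP libraries (median 6773), a range that YFP replicates 1, 3 and 6 share. Plin2, which coats lipid droplets, was the 1 member below 0, at -0.10. Cd5l, Spp1 and Plin2 are outside the naming rule and were chosen after their values were seen.

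GFP libraries were not uniform for these genes. Replicates 1 and 2 held the lowest sums of foam cell genes, and replicates 4, 5 and 6 the highest. With libraries numbered 3 to 6 only, in both groups, the foam cell median was 1.47, and with numbers 1 and 2 only, where YFP has 1 library, it was 0.84.

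The lysosome list differed less. Of 26 genes, 22 were above 0, and the median was 0.31, or -0.01 without YFP replicate 5. At an unadjusted p below 0.05, 3 were higher (9.12% of all genes) and 1 was lower (1.07% of all genes). Ctsl, cathepsin L, led the list beside Atp6v0d2. Its level was 1079, 1153, 3136, 8446 and 711 CPM in YFP replicates 1, 3, 4, 5 and 6, against 222 to 1023 CPM in the GFP libraries (median 497). YFP replicates 1, 3, 4 and 5 lay above the GFP libraries, and the log2 fold change of 2.37 ± 0.64 was 1.42 without YFP replicate 5. Lipa, the acid lipase that frees cholesterol in lysosomes, stood at 288, 573, 885, 792 and 301 CPM in the YFP libraries against 208 to 389.6 CPM in the GFP libraries (median 342). YFP replicates 3, 4 and 5 lay above all GFP libraries. Lamp1, a structural protein of the lysosome membrane outside the naming rule, was even between the groups (log2 fold change 0.24 ± 0.38).

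The Ctsl promoter is shown because this gene stands in both the foam cell and the lysosome list and its window holds the palindrome CACGTG, which transcription factors of the TFEB family read. The window is chr13:64370471-64370770 on the minus strand (RefSeq, GRCm38.p6), with CACGTG in capitals. The RefSeq start of Ctsl also lies inside the gene's GENCODE bounds.
Ctsl: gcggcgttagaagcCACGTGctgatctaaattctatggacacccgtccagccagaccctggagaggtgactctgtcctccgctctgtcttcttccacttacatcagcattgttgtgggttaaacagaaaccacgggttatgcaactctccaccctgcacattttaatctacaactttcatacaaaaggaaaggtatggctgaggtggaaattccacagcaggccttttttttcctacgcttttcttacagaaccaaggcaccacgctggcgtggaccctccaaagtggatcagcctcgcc
Of 20 lysosome genes with a promoter in the table, 8 held CACGTG on either strand (40%), as did 3 of 12 foam cell genes (25%), against 8.09% of all 27025 genes. The longer form TCACGTG, which contains it, was in 35% and 16.7% of those lists and in 4.29% of all genes. Ctsl has the shorter form only. A match describes these letters and is not a site of binding.

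Genes of lipid traffic showed no common direction beyond the foam cell list. Cholesterol efflux and LXR targets had 12 of 19 members above 0 (median 0.41, and -0.05 without YFP replicate 5), and scavenger receptors 8 of 14 (median 0.39, and -0.19 without it). Cd36, which takes up oxidised lipoproteins, stood at 354, 596, 782, 1476 and 363 CPM in YFP replicates 1, 3, 4, 5 and 6 against 145 to 475 CPM in the GFP libraries (median 335). YFP replicates 3, 4 and 5 lay above the GFP range. Olr1, another receptor of oxidised LDL, stood lower, at 0.7098, 24.6, 24.5, 1.29 and 20.6 CPM in the YFP libraries against 23.1 to 79.5 CPM in the GFP libraries (median 32.2), and YFP replicates 1, 5 and 6 lay below every GFP library. For YFP replicate 6 the gap is less than the 2.95 CPM that 1 read is worth there. Cholesterol synthesis genes had 6 of 21 members above 0, with a median of -0.35. Stard4, a carrier of cholesterol between membranes, was read at 0.684, 4.69, 3.05, 0.397 and 0 CPM in the YFP libraries against 5.80 to 9.41 CPM in the GFP libraries (median 6.65). The groups did not overlap, though every value was low. YFP replicate 6 had no read, and a gene with no read there could stand at up to 8.85 CPM, inside the GFP range.

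Genes of resident macrophages were split. Of 17 tested, 6 were above 0 and 11 below, with a median of -0.30. Stab1 led those lower in YFP. Mrc1, the mannose receptor, stood at 142, 317, 120.5, 197 and 254 CPM in YFP replicates 1, 3, 4, 5 and 6 against 281 to 896 CPM in the GFP libraries (median 364). YFP replicates 1, 4, 5 and 6 lay below every GFP library and YFP replicate 3 among them (log2 fold change -1.13 ± 0.39). The lectins Cd209d and Cd209f, whose family holds close copies, ran the other way (log2 fold changes 3.52 and 3.25). Cd209f was read at 17.7, 62.4, 3.88, 409 and 20.6 CPM in the YFP libraries, against 1.71 to 35.2 CPM in the GFP libraries (median 5.51), highest in YFP replicate 5. Retnla, a product of alternatively activated macrophages and of some dendritic cells, differed widely between YFP libraries. It stood at 748, 555, 198, 15160.1 and 404 CPM in the YFP libraries against 3.90 to 182 CPM in the GFP libraries (median 20.3). No YFP library fell in the GFP range, and the log2 fold change of 6.24 ± 1.35 was 3.38 without YFP replicate 5. The alternative activation list, Retnla included, mostly ran lower, with 11 of 14 tested members below 0 and a median of -0.38.

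Classical monocyte genes were mostly lower in YFP. Of 13 classical monocyte genes 10 were below 0, 4 of them at an unadjusted p below 0.05 (1.07% of all genes were lower at that level), with a median of -0.78 that lay in the range -1.05 to -0.60 when single libraries were left out. Hp and Chi3l3 led them. The 1 member higher at an unadjusted p below 0.05 was Mgst1, a microsomal glutathione transferase, at 31.0, 44.0, 80.4, 369 and 85.5 CPM in the YFP libraries against 13.1 to 68.3 CPM in the GFP libraries (median 34.9) (log2 fold change 1.78 ± 0.62). Its highest value was in YFP replicate 5, and YFP replicates 4 and 6 also lay above the GFP range. Chi3l3 stood at 9.02, 117, 89.5, 91.8 and 230.1 CPM in YFP replicates 1, 3, 4, 5 and 6 against 157 to 1007 CPM in the GFP libraries (median 366). YFP replicate 6 lay within the GFP range and the other 4 below it. Ccr2, the receptor that brings monocytes from the marrow and outside the naming rule, did not separate the groups, with 99.0, 285, 131, 507 and 201 CPM in the YFP libraries against 145 to 437 CPM in the GFP libraries (median 203). Nonclassical monocyte genes were divided, 6 above and 8 below 0, with 2 at an unadjusted p below 0.05 in each direction. The shares of all genes at that level were unequal, 9.12% higher and 1.07% lower. The smallest p belonged to Ear2, a ribonuclease with close copies, and Fabp4, a fatty acid carrier that the foam cell list also holds, both higher in YFP (log2 fold changes 3.03 ± 0.92 and 2.38 ± 0.73). Without YFP replicate 5 these were 0.72 and 1.25. Ear2 stood at 5.50, 6.62, 2.99, 88.1 and 0 CPM in the YFP libraries against 1.80 to 4.39 CPM in the GFP libraries (median 2.25). Fabp4 stood at 22.6, 33.7, 42.2, 202 and 14.7 CPM in the YFP libraries against 5.34 to 36.8 CPM in the GFP libraries (median 7.06), with YFP replicates 4 and 5 above the GFP range. Treml4 stood at 5.83, 16.2, 4.00, 1.09 and 26.5 CPM in the YFP libraries against 30.3 to 54.7 CPM in the GFP libraries (median 41.6), below every GFP library throughout. YFP replicate 6, where 1 read is worth 2.95 CPM, came close to the lowest GFP library on few reads. Csf1r, the receptor for the growth factor on which macrophages and monocytes depend, was read at 491, 2511, 1968, 1334 and 2100.1 CPM in the YFP libraries, against 2210.1 to 4862 CPM in the GFP libraries (median 3134). YFP replicate 1 was far below the others, YFP replicate 3 alone reached the GFP range, and the log2 fold change was -1.03 ± 0.39 (edgeR adjusted p = 0.445). The receptor subunit Csf2ra for granulocyte-macrophage growth factor, outside the naming rule, was even (log2 fold change 0.11 ± 0.29).

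**Figure D3:**
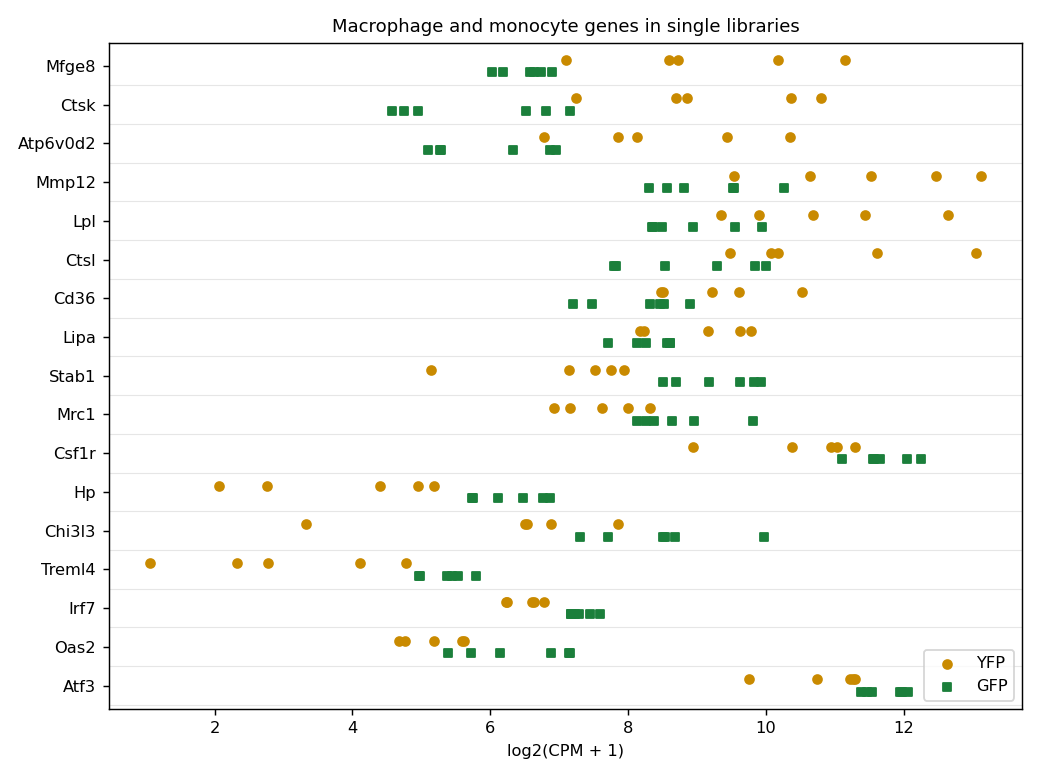
Level of macrophage and monocyte genes as log2(CPM + 1), 1 point per library, YFP above GFP in each row. Foam cell genes such as Mmp12 and Lpl run higher in YFP with overlap, and Mfge8 and Ctsk run higher without it. Stab1, Hp, Treml4, Irf7 and Atf3 show no overlap and run lower, while Mrc1, Csf1r, Chi3l3 and Oas2 run lower with overlap. Of all tested genes, 0.325% are higher and 0.756% lower without overlap.

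Markers of type 1 conventional dendritic cells (cDC1), the cross-presenting class, were above 0 in 13 of 13 tested, 8 at an unadjusted p below 0.05 (9.12% of all genes were higher at that level), with a median of 1.43 and a range of 1.21 to 1.58 when single libraries were left out. The markers did not run together across YFP libraries. Xcr1, the chemokine receptor that defines cDC1, stood at 41.5, 46.2, 10.7, 0.298 and 2.95 CPM in YFP replicates 1, 3, 4, 5 and 6 against 2.79 to 11.0 CPM in the GFP libraries (median 5.58). Only YFP replicates 1 and 3 lay clearly above the GFP libraries, and YFP replicate 5 lay below them all. Clec9a, the cDC1 receptor for dead cells, outside the naming rule, had the same shape, with 23.8, 13.97, 1.13, 0 and 0 CPM in the YFP libraries against 0 to 1.48 CPM in the GFP libraries (median 0.293). Itgae, the integrin subunit CD103, stood at 65.8, 63.3, 3.05, 57.0 and 5.90 CPM in the YFP libraries against 0.155 to 6.48 CPM in the GFP libraries (median 0.696), and there YFP replicate 5 was close to replicates 1 and 3. Sept3, a septin, had 24.3, 24.9, 2.69, 123 and 2.95 CPM in the YFP libraries and 0.05004 to 2.53 CPM in the GFP libraries (median 0.560), with no overlap although YFP replicates 4 and 6 were within 1 CPM of GFP replicates 1 and 2. The value of YFP replicate 6 rests on 1 read. Flt3, which receives the growth signal of dendritic cells and is outside the naming rule, was at 68.4, 48.3, 4.48, 0.199 and 0 CPM in the YFP libraries against 1.09 to 35.3 CPM in the GFP libraries (median 5.26). In YFP replicate 5, Xcr1, Clec9a and Flt3 were thus at or near 0 while Itgae, Sept3 and Batf3 (132 CPM there, outside the rule) were high, and in YFP replicate 6 Clec9a and Flt3 had no read.

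Genes of type 2 and mature dendritic cells were less one-sided, with 9 of 15 above 0, none at an unadjusted p below 0.05 and a median of 0.48 (-0.16 without YFP replicate 5). Ccr7, which guides mature dendritic cells to lymph nodes, was read at 336, 237, 76.7, 140.5 and 11.8 CPM in YFP replicates 1, 3, 4, 5 and 6 against 9.51 to 172 CPM in the GFP libraries (median 41.2). The groups overlapped widely, and within each group the libraries numbered 1 (and, in GFP, 2) were highest. All 11 genes of antigen presentation on MHC class II were above 0, with a median of 0.79, or 0.11 without YFP replicate 5. H2-Ab1, a chain of the class II molecule outside the naming rule, stood at 4407, 9708, 5492, 20709.6 and 4118 CPM in the YFP libraries, against 4473 to 8741 CPM in the GFP libraries (median 5633). YFP replicates 3 and 5 lay above the GFP range, and YFP replicates 1 and 6 below it. Ctss, cathepsin S, which trims the invariant chain, had 1679, 4048, 7535, 22752 and 3805 CPM in the YFP libraries and 1607 to 6281 CPM in the GFP libraries (median 2998), and only YFP replicates 4 and 5 lay above the GFP range.

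Interferon-induced genes ran lower in YFP. Of 26 tested, 21 were below 0 and 3 had an unadjusted p below 0.05 (1.07% of all genes were lower at that level). The median of -0.49 lay in the range -0.54 to -0.31 when single libraries were left out. Irf7, the factor that amplifies the interferon response, was the most even, with 74.4, 109, 96.2, 98.8 and 73.7 CPM in YFP replicates 1, 3, 4, 5 and 6 against 143 to 192 CPM in the GFP libraries (median 152). Every YFP library lay below every GFP library, by a log2 fold change of -0.81 ± 0.28 (edgeR adjusted p = 0.426). Oas2 and Oas3 make the messenger that switches on RNase L. Oas3 stood at 10.2, 10.8, 9.38, 0.298 and 8.85 CPM in the YFP libraries against 4.96 to 36.7 CPM in the GFP libraries (median 21.99), and only GFP replicate 5 came down into the YFP range. Ifit1, which binds foreign RNA and is outside the naming rule, varied within both groups, at 22.3, 516, 153, 128 and 29.5 CPM in the YFP libraries and 46.0 to 397 CPM in the GFP libraries (median 103).

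The Oas3 promoter is shown as an example of the interferon-response motif in this list, searched as GAAA, any 2 bases and GAAA again. The window is chr5:120777610-120777909 on the minus strand (RefSeq, GRCm38.p6), with the match in capitals.
Oas3: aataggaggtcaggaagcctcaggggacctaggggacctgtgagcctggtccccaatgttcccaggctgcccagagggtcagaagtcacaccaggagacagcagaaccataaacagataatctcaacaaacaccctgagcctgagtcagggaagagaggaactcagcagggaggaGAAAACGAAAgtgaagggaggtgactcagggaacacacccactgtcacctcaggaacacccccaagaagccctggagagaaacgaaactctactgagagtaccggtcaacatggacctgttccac
Of 19 interferon-induced genes with a promoter in the table, 9 held that motif on either strand (47.4%), against 3.99% of 27025 genes. Letters that match do not show that a factor bound there.

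Inflammatory cytokine and inflammasome genes were balanced, 10 above and 11 below 0 (median -0.10, which turns above 0 under relative log expression scaling). Il6, a cytokine of stromal and myeloid cells, stood at 312, 49.1, 54.4, 197 and 14.7 CPM in YFP replicates 1, 3, 4, 5 and 6 against 3.79 to 29.8 CPM in the GFP libraries (median 11.7). YFP replicates 1, 3, 4 and 5 lay above the GFP range, YFP replicate 1 the highest, and the log2 fold change was 3.25 ± 0.72. Il12b, the subunit that interleukins of T cell priming share, had 147, 203, 60.6, 0.397 and 5.90 CPM in the YFP libraries against 1.71 to 46.9 CPM in the GFP libraries (median 9.19), high in replicates 1, 3 and 4 and near 0 in YFP replicate 5. Genes that tissue digestion switches on ran lower in YFP, 18 of 24 below 0 (median -0.38). Atf3, a stress-induced factor of this list, stood at 864, 2378, 1716, 2461 and 2522 CPM in the YFP libraries against 2672 to 4277 CPM in the GFP libraries (median 3465), with no overlap. The part of handling in the other differences was not tested.

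The title of the study names cells that migrate, and lists of movement were read with this in view. Chemokine ligands were above 0 in 18 of 29 (median 1.05, and 0.30 without YFP replicate 5), 9 of them at an unadjusted p below 0.05 (9.12% of all genes were higher at that level), and 1 member was lower at that level. Ccl11, eotaxin, which draws eosinophils, stood at 22.7, 7.61, 5.85, 48.8 and 2.95 CPM in YFP replicates 1, 3, 4, 5 and 6 against 0.0948 to 2.46 CPM in the GFP libraries (median 0.332). The groups did not overlap, though YFP replicate 6 rests on 1 read. Ccl19, a ligand of Ccr7 made by stromal cells, had 276, 17.7, 32.3, 75.9 and 26.5 CPM in the YFP libraries and 3.17 to 17.0 CPM in the GFP libraries (median 11.6). YFP replicate 1 was by far the highest and YFP replicate 3 just above the GFP libraries. Chemokine receptors gave 11 of 17 above 0 and none at an unadjusted p below 0.05. Actin and motility genes were above 0 in 23 of 32 with a median of 0.26, which was -0.19 without YFP replicate 5, and none was higher at an unadjusted p below 0.05. Cfl1, cofilin, which severs actin filaments, is an example, with 491, 676, 786, 5068 and 835 CPM in the YFP libraries against 449.5 to 1279.7 CPM in the GFP libraries (median 666). YFP replicate 5 stood far above all others, and the log2 fold change of 1.06 was -0.13 without it. Fmnl1, a formin of leukocytes, stood lower, with 112, 111, 87.4, 126 and 79.6 CPM in the YFP libraries against 123 to 289 CPM in the GFP libraries (median 142), and YFP replicate 5 alone reached the GFP range. Matrix metalloproteinases and their inhibitors were above 0 in 16 of 18, 8 at an unadjusted p below 0.05 (9.12% of all genes were higher at that level), with a median of 1.06 and a range of 0.85 to 1.28 when single libraries were left out. Mmp12 is described above with the foam cell genes. Mmp2, gelatinase A, a typical product of fibroblasts, had 336, 110.1, 153, 1.59 and 14.7 CPM in the YFP libraries against 9.95 to 41.0 CPM in the GFP libraries (median 23.6), high in YFP replicates 1, 3 and 4 only. Mmp13, a collagenase outside the naming rule, had 7.48, 210.4, 219, 265 and 41.3 CPM in the YFP libraries against 15.98 to 69.4 CPM in the GFP libraries (median 36.3), high in YFP replicates 3, 4 and 5. The 2 proteases thus followed different libraries.

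Markers of other cell types differed between the groups and between single libraries of each. All 14 fibroblast markers were above 0, 12 at an unadjusted p below 0.05 (9.12% of all genes were higher at that level), with a median of 2.78 (1.80 to 3.20 when single libraries were left out). Their summed level was 17290.4, 3406, 4677, 1174 and 1150.3 CPM in YFP replicates 1, 3, 4, 5 and 6 against 339 to 1479.6 CPM (median 806) in the GFP libraries. YFP replicates 1, 3 and 4 lay above every GFP library, and YFP replicates 5 and 6 within the GFP range. Dcn, the matrix proteoglycan decorin, stood at 2341, 586, 1092, 349 and 242 CPM in the YFP libraries against 37.3 to 249.5 CPM in the GFP libraries (median 126). Complement genes that stromal cells also make followed, such as C3, the central complement protein, at 5243, 824, 638, 134 and 204 CPM in the YFP libraries against 55.7 to 387 CPM in the GFP libraries (median 248). Lum, Fstl1, Mmp2, Ccl19 and Serping1, an inhibitor of complement proteases, were likewise highest in YFP replicate 1 among the YFP libraries. Serping1 stood at 1115, 286, 408, 126 and 106 CPM in the YFP libraries, against 17.4 to 128 CPM in the GFP libraries (median 66.8). The part of fibroblast RNA in those differences was not tested.

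Endothelial markers were above 0 in 11 of 12 tested, with a median of 1.89. Their sum was 441, 84.3, 90.5, 374 and 61.9 CPM in YFP replicates 1, 3, 4, 5 and 6 against 24.9 to 68.3 CPM (median 48.5) in the GFP libraries, highest in YFP replicates 1 and 5, as were Plvap and Nos3. Of 13 markers of B cells and plasma cells 9 passed the filter on low counts, and the list's median of 3.64 was 0.51 without YFP replicate 1. The sum was 2771, 192, 344, 244 and 118 CPM in the YFP libraries against 87.0 to 173 CPM (median 118) in the GFP libraries. Ms4a1, which encodes CD20, was also by far the highest in YFP replicate 1, with 58.7, 4.01, 2.57, 0.696 and 5.90 CPM in the YFP libraries against 0.851 to 1.95 CPM in the GFP libraries (median 0.983). YFP replicates 3, 4 and 6 lay above the GFP range at low values, and YFP replicate 5 below it. Of 13 platelet and erythroid markers 8 passed the filter, and all 8 were above 0, with a median of 3.36. Of these, 5 had an unadjusted p below 0.05 (9.12% of all genes were higher at that level). The filter can admit a gene through the group where it is high. Gp1bb, for example, stood at 0.05004 to 0.915 CPM in the GFP libraries, and at 1.77, 10.9, 5.91, 63.1 and 0 CPM in the YFP libraries. The directions and medians of this list and the B cell list may therefore be partly set by the filter and test nothing. The sum of the platelet and erythroid list was 80.6, 231, 135, 1413 and 239 CPM in the YFP libraries against 78.1 to 516 CPM (median 194) in the GFP libraries. Only YFP replicate 5 stood out, and the haemoglobin genes Hbb-b1 and Hba-a1 were at 0 reads in all 11 libraries. Neutrophil markers summed to 121, 314, 198, 489.9 and 1165 CPM in the YFP libraries against 197 to 468 CPM (median 265) in the GFP libraries, and those of eosinophils, basophils and mast cells to 98.5, 90.5, 46.5, 29.9 and 528 CPM in the YFP libraries against 54.4 to 217 CPM (median 89.9) in the GFP libraries. Both sums were highest in YFP replicate 6, where Retnlg, a resistin-like product of neutrophils, and Prg2, the major basic protein of eosinophils, stood at 448 and 85.5 CPM. T cell markers were below 0 in 11 of 13, with a median of -0.95 that was -0.05 with libraries numbered 3 to 6 only. Their sum was 143, 46.3, 30.8, 77.8 and 61.9 CPM in the YFP libraries against 21.1 to 379 CPM (median 46.9) in the GFP libraries. The high GFP values came from replicates 1 and 2, which also held 80.5 and 29.4 CPM of Gzmb, the granzyme of killer lymphocytes, while no other library of either group held above 2.95 CPM.

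**Figure D4:**
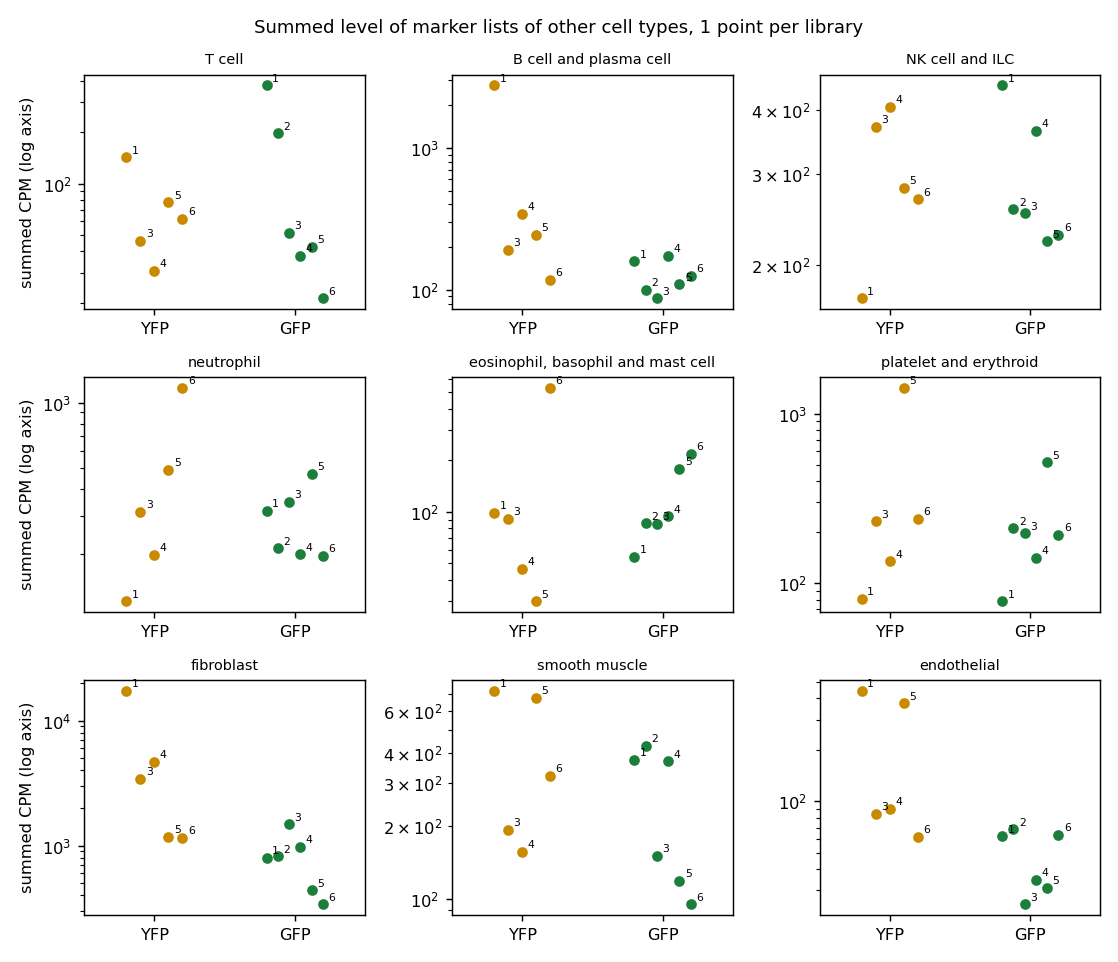
Summed level of marker lists of other cell types in CPM on log axes that differ between panels, 1 point per library with its replicate number, YFP left and GFP right. Single libraries stand out: YFP replicate 1 for fibroblasts and B cells, YFP replicate 5 for platelets, YFP replicate 6 for neutrophils, and GFP replicates 1 and 2 for T cells. The platelet sum of YFP replicate 5 is mostly Pf4, which the resident macrophage list also holds.

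The labels name male and female mice without saying which library holds which. Xist, read from the inactive X chromosome of females, was found at 20.5, 1.71, 16.2, 1.29 and 8.85 CPM in YFP replicates 1, 3, 4, 5 and 6 and 4.12 to 40.6 CPM in the GFP libraries (median 17.0). Ddx3y, on the Y chromosome, was found at 54.9, 86.3, 17.1, 15.3 and 2.95 CPM in the YFP libraries and 0.142 to 91.8 CPM in the GFP libraries (median 47.8). Most libraries held both, and GFP replicate 6 held Ddx3y at near 0. Sex was not part of the fit.

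**Figure D5:**
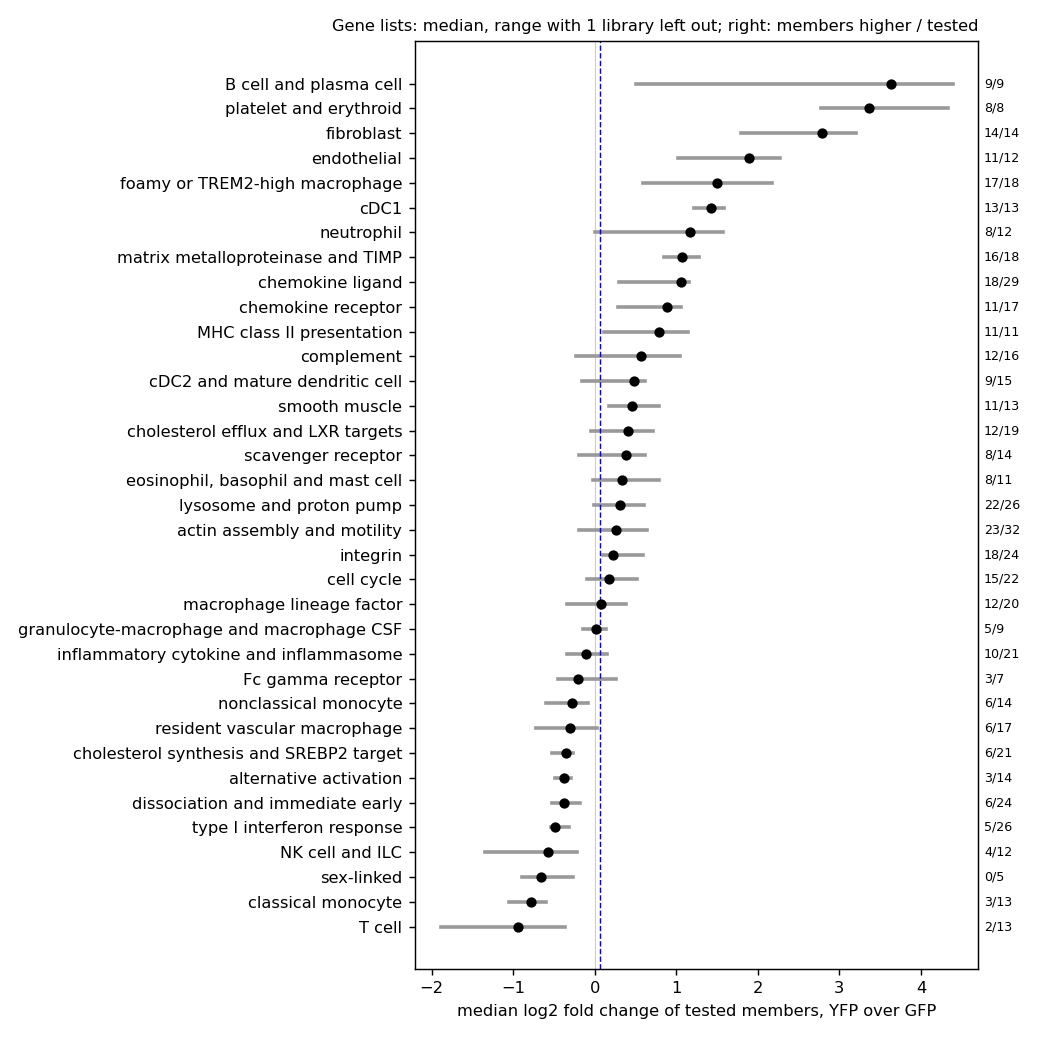
Median log2 fold change, YFP over GFP, of the tested members of 35 gene lists (points), with the range when 1 library at a time is left out (grey lines); the dashed line marks the median of all tested genes, and the fractions give members higher in YFP over members tested. Lists of fibroblast, endothelial, B cell and platelet markers lie farthest right with wide ranges, and the smooth muscle list lies at 0.45. The foamy macrophage list has a median of 1.50 and also a wide range (0.59 to 2.17). The cDC1 list has a median of 1.43 (1.21 to 1.58). The classical monocyte and T cell lists lie lowest.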

How the data were processed

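Per the labels' protocols, RNA of sorted cells was amplified with a SMART-seq v4 kit, and Nextera XT libraries were sequenced. The tools were TopHat 1.4.1, HTSeq 0.7.1 and SAMtools, with build mm10, per the submitters' processing notes. Which annotation and strand setting the counting used is not given in the sources used here. Overlapping, antisense or near-identical genes (Pydc3, Ear2, Cd209d, Cd209f, Ccl19) are therefore uncertain. The authors deposited whole-number counts for 23337 gene symbols, used as they stood. Reads carry no molecular identifiers, so limits set by depth cover counting error only. Libraries were grouped by the sort in the labels. All pairs of libraries within a group differed by more than sampling noise (lowest chi-square per degree of freedom 16.7).

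The 11 libraries were fitted with edgeR 4.0.16 in R 4.3.3 (filterByExpr at a minimum count of 10, TMM scaling, robust quasi-likelihood test, Benjamini-Hochberg). This kept 13226 genes with 99.8% of counts, at a common dispersion of 0.570. Standard errors come from the fold change and F. CPM are relative to TMM-scaled library sizes. The fit was tested on simulated data. DESeq2 1.42.0 and limma 3.58.1 were alternatives, with RLE scaling, other filters, a number block and single libraries left out.

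Members and lists were chosen with earlier results of these data known. Named genes were the 15 with the smallest p in each direction at a mean of 20 CPM or more in the higher group, Itgax, Cx3cr1, Apoe, Xist, Y-linked genes, and up to 3 members per list with the smallest p at 5 CPM or more. Predicted genes, pseudogenes and receptor segments were skipped. Of 617 list entries 616 matched a symbol. Coordinates are from GENCODE vM21, which held 94 of 98 named genes.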

Additional observations from a re-analysis of the deposited data

Results flagged for a closer look

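In 98 genes, each group's libraries were screened for a highest or lowest value far from the rest on the log2(CPM + 1) scale. Of 196 groups of libraries 8 were marked, where chance marks about 1 in 20, and 5 of the 8 were YFP replicate 5.

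In YFP replicate 5, Cfl1 stood at 5068 CPM, against 491 to 835 CPM in the other YFP libraries, and Apoe at 208 CPM, against 16.4 to 26.5 CPM. The same library lay far below the rest for Stab1 at 34.2 CPM (141 to 244 CPM in the others), for Siglec1 at 2.58 CPM (13.3 to 23.6 CPM) and for Oas3 at 0.298 CPM (8.85 to 10.8 CPM). In YFP replicate 1, the B cell kinase gene Blk stood at 55.1 CPM, against 0 to 1.67 CPM in the other YFP libraries. In GFP replicate 6, the Y-linked gene Ddx3y stood at 0.142 CPM, against 27.6 to 91.8 CPM in the other GFP libraries. In GFP replicate 4, Pydc3 stood at 13.5 CPM, against 20.9 to 27.1 CPM in the other GFP libraries.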

How the results depend on the processing

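The edgeR test called 0 genes in each direction (1206 higher and 141 lower at an unadjusted p below 0.05), also with all 18 libraries, numbers 3 to 6 only, a term for the number set, RLE scaling and a stricter filter. With a replicate block it called 1 higher (Retnla) and 0 lower (491 and 294 at an unadjusted p below 0.05). Deviations of same-numbered libraries correlated at over 0.1 in 4 of 5 pairs, and 3 of 5 YFP libraries correlated best with their own number, a hint of shared numbers from the data. The labels do not tie the numbers, and since 1 pair (number 6, at 0.043) stayed under 0.1 the fit without the block was kept. That pair cannot decide the question, because counting error in YFP replicate 6 (289166 counts) may hide a correlation. The other 4 pairs lay between 0.320 and 0.501, so a shared block remains possible. With numbers 1 and 2 only, where the lone YFP library is assumed to vary like the others, it called 1105 higher and 761 lower, and with no filter 30 higher and 0 lower. Leaving out 1 library gave 0 to 17 higher and 0 to 1 lower. DESeq2 called 225 higher and 20 lower (2185 genes had no adjusted p), and limma voom 221 and 64. YFP replicates 1, 3 and 4 against all GFP, an alternative chosen after seeing the data, gave 138 and 13. The cause of these differences was not tested.

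Of the genes called higher or lower at an unadjusted p below 0.05, 89.5% were higher, against 68.5% without YFP replicate 5, 63.0% with limma voom and 62.5% with the replicate block. RLE scaling moved the median of all genes to 0.25 from 0.07.

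Over 98 genes and 22 settings, 1916 of 2147 fold changes kept their direction and side of the threshold, 218 came to pass it, and 13 reversed, over 5 genes. The log2 fold change of Apoe was -0.14 with the block, -0.38 with numbers 1 and 2, -0.75 with limma voom, -0.91 with YFP replicates 1, 3 and 4, and -0.84 to 1.36 with 1 library left out. That of Cfl1 was -0.45 with numbers 1 and 2, -0.22 with YFP replicates 1, 3 and 4, and -0.13 to 1.65 with 1 left out. Ddx3y gave 0.22 with limma voom, 0.19 with YFP replicates 1, 3 and 4, and -0.80 to 0.020 with 1 left out. Gzmb gave 0.36 with numbers 3 to 6, and Itgax -0.047 with numbers 1 and 2. Of 791 list medians 92 moved by more than the replicate spread.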

Other observations

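Genes that passed edgeR's test once YFP replicate 5 or 6 was left out, and that the naming rule did not take, were looked at after their values were seen. Cd200, a surface glycoprotein that restrains myeloid cells, stood at 164, 80.5, 167, 46.1 and 35.4 CPM in YFP replicates 1, 3, 4, 5 and 6, against 13.9 to 32.9 CPM in the GFP libraries. Every YFP library lay above every GFP library, and the log2 fold change was 2.38 without YFP replicate 5. Wfs1, the endoplasmic reticulum protein wolframin, was read at 48.1, 39.8, 66.1, 70.0 and 0 CPM in the YFP libraries, against 6.00 to 10.2 CPM in the GFP libraries. YFP replicate 6 had no read, the other 4 were alike, and the log2 fold change was 2.85 without that library. Cd226, an adhesion receptor of lymphocytes and platelets, was read at 17.7, 18.3, 12.7, 28.9 and 0 CPM in the YFP libraries, against 0.310 to 2.82 CPM in the GFP libraries, again with no read in YFP replicate 6. Ly6i, a member of a family with close copies, ran lower, at 1.09, 0.315, 0.478, 0.497 and 8.85 CPM in the YFP libraries against 5.94 to 12.5 CPM in the GFP libraries, and YFP replicate 6, on 3 reads, was the one YFP library to overlap.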
